A study of Mus musculus with 18 samples.

Results

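Inflammasome and pyroptosis genes were followed as a list of 10 genes taken by symbol from the count table: the sensors Nlrp3, Nlrc4, Naip2, Aim2 and Mefv, the adaptor Pycard, the proteases Casp1, Casp4 and Casp8, and the pore-forming protein Gsdmd. They are 10 of the 21254 genes in the table, and all 10 were among the 15811 genes with enough reads to be tested. The study sorted 3 populations of monocyte-derived cells from mouse lungs 24 h after a 15 min nebulisation of lipopolysaccharide (LPS) from Pseudomonas aeruginosa, 12.5 mg in 5 ml, and asked how the loss of ezrin, a protein that links the membrane to the actin cytoskeleton, changes them. All 18 libraries come from LPS-exposed lungs, so no library shows an unexposed level of these genes. The populations, all CD45+CD11b+, were monocyte-derived macrophages (moMs; Ly6C+ MHC-II-), transitional interstitial macrophages (tnsIMs; Ly6C+ MHC-II+) and mature interstitial macrophages (matIMs; Ly6C- MHC-II+). Ezr-KOm animals carry floxed Ezr alleles and Cre driven from the Cx3cr1 promoter. WT animals carry the same Cx3cr1-Cre without the floxed alleles, on the same C57BL/6 background, and the mice were 3 to 5 months old. The Cx3cr1 promoter is also active in some dendritic cells, eosinophils and NK cells, so the deletion is not limited to the sorted cells. Each of the 6 groups has 3 libraries.

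An inflammasome is a protein platform that assembles in the cytosol when a sensor detects a microbial product or a disturbance of the cell. In the canonical form the sensor recruits ASC, the product of Pycard, and activates caspase-1, which matures the cytokines IL-1β and IL-18 and cleaves gasdermin D, whose fragment opens pores in the plasma membrane and causes the lytic death called pyroptosis. In the non-canonical form the mouse Casp4 product binds LPS in the cytosol and cleaves gasdermin D directly. In macrophages LPS also primes the system by raising the transcripts of Nlrp3 and Il1b, while maturation and cleavage take place on proteins, which RNA libraries do not measure.

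Library totals ran from 16512783 to 48460995 counts, with the highest total in 1 tnsIM Ezr-KOm library. Ezr itself was lower in the Ezr-KOm libraries with no overlap between genotypes in any population. In moMs it was at 497 to 593 CPM (read counts scaled to library size, here on the TMM scale) in WT and at 160.0 to 282 CPM in Ezr-KOm (log2 fold change -1.20 ± 0.24 SE, adjusted p = 0.0549), in tnsIMs the log2 fold change was -1.62 (adjusted p = 0.00365), and in matIMs it was -2.29 (adjusted p = 7.73e-05). The moM difference therefore missed the adjusted threshold of 0.05 used here. All 11 macrophage and monocyte markers on a marker list had a mean above 1 CPM in every group. So did all 8 T and NK cell, all 5 endothelial and all 5 fibroblast markers. That cut-off therefore does not tell cell types apart. The sorted populations differed in other markers too, and those values are given with the population comparisons. In bulk libraries of sorted cells, fewer cells of a type and less RNA per cell cannot be told apart.

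Nlrp3, which responds to potassium efflux and other signs of membrane damage, had the highest level of the 10 genes in all 6 groups when CPM were divided by the length of annotated exons. In WT moMs its mean was 137 ± 22.6 CPM per kilobase (SD, n = 3). It was followed on the same per-length scale by Mefv at 76.9, Gsdmd at 63.7, Casp8 at 59.6, Casp1 at 38.2, Casp4 at 18.4, Pycard at 15.1 and Naip2 at 10.9 CPM per kilobase. Aim2 at 4.02 and Nlrc4 at 3.54 CPM per kilobase closed the order. The length joins the exons of all annotated transcripts of a gene, and the order between genes depends on that choice. For Pycard the joined length was 4235 bases, longer than the span of the gene in the count table, so its place in the order is uncertain. Lengths come from a newer annotation (Gencode M39) than the one used for counting (M29). The bounds of Nlrc4, Aim2, Naip2, Pycard, Casp8 and Gsdmd in the count table differ from those in M39, so their levels per kilobase are less certain. Within WT moMs the libraries of neighbours in this order overlapped for Mefv and Gsdmd, Gsdmd and Casp8, Casp4 and Pycard, and Aim2 and Nlrc4, so those neighbours were not separated. In tnsIMs and matIMs of both genotypes the means of Gsdmd and Casp8 stood above that of Mefv, although Casp8 and Mefv overlapped in tnsIMs, and Mefv had a mean of 40.4 CPM per kilobase in WT tnsIMs and 27.9 in WT matIMs. In WT matIMs Nlrp3 and Gsdmd overlapped. No member was near the detection limit: the lowest count of any member in any library was 109 reads, for Aim2, and the highest was 30373 reads, for Nlrp3.

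**Figure D1:**
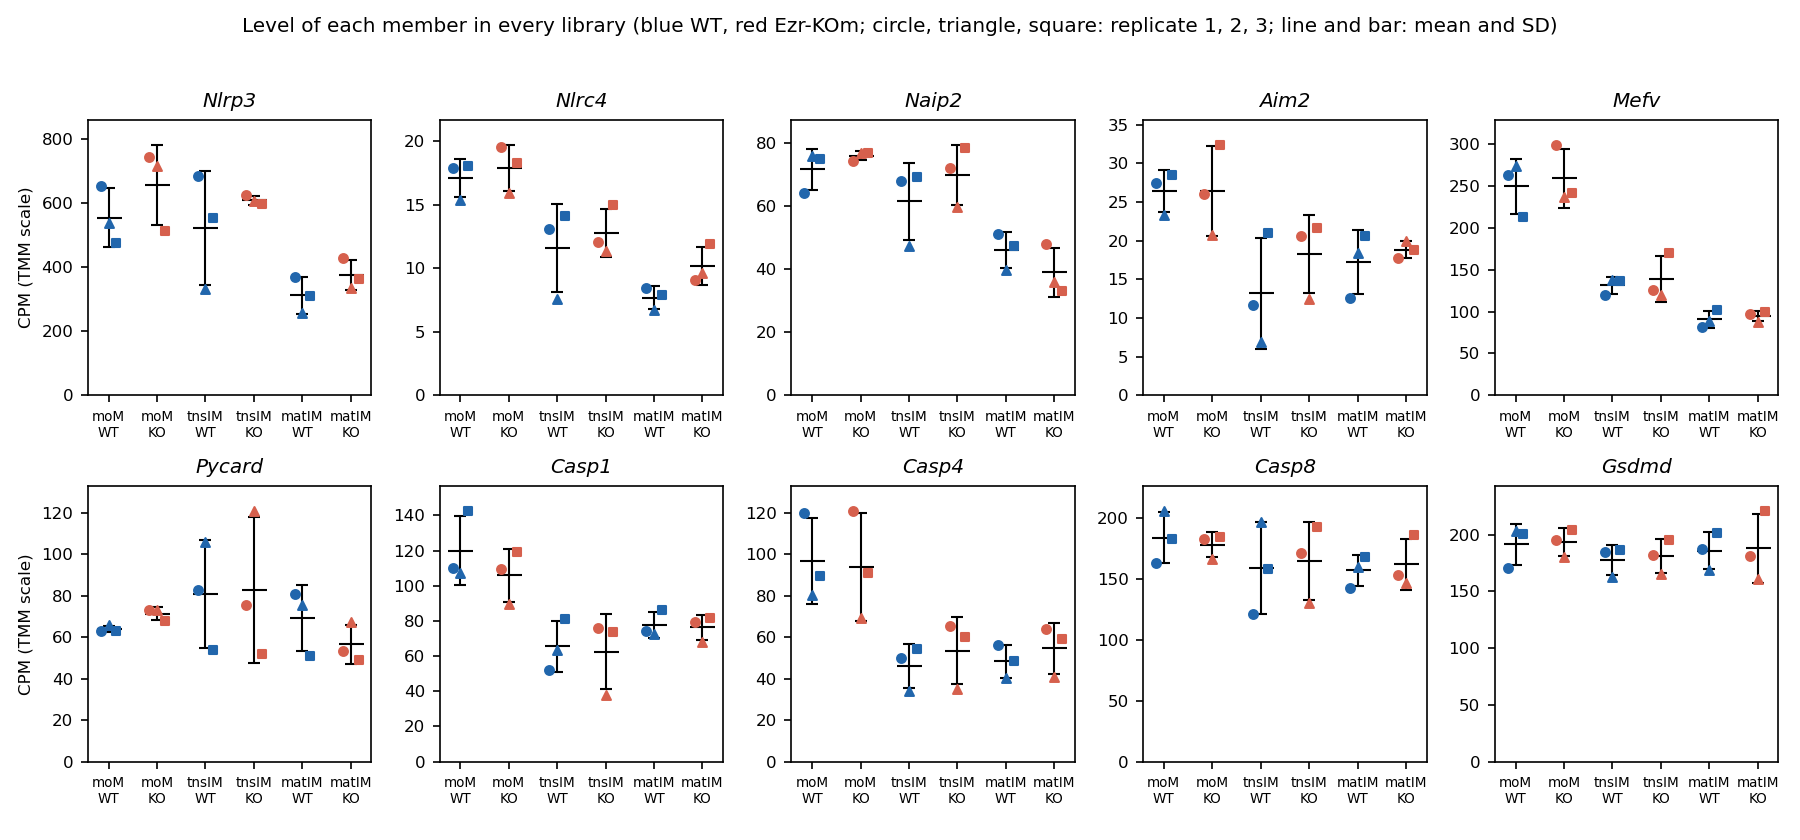
Level of each of the 10 genes in every library, in CPM on the TMM scale (vertical axes, each starting at 0) for the 6 groups (horizontal axes); points are libraries, with marker shape giving the replicate number, and the line and bar give the mean and SD of 3 libraries. Mefv falls from 249.9 CPM in WT moMs to 90.8 CPM in WT matIMs, whereas Gsdmd keeps a mean between 178 and 193 CPM in all 6 groups.

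Genome positions of the genes are those of the count table, on GRCm39. Nlrp3 lies at chr11:59432394-59457782 on the plus strand, Mefv, the gene of pyrin, at chr16:3525082-3535961 on the minus strand, and Casp1 and Casp4 are neighbours on the plus strand of chromosome 9, at chr9:5298508-5307290 and chr9:5308828-5336783. Nlrc4 lies at chr17:74732433-74766137 (minus), Naip2 at chr13:100280571-100338600 (minus), Aim2 at chr1:173178445-173293606 (plus), Pycard at chr7:127588880-127593039 (minus), Casp8 at chr1:58834533-58886662 (plus) and Gsdmd at chr15:75734176-75739257 (plus). The sequences upstream of the transcript start are shown for Mefv, Nlrp3 and Casp4, a sensor with the largest difference between populations, the most abundant sensor and the LPS-binding protease. All 3 were lower in matIMs than in moMs in both genotypes. Each window is read 5′ to 3′ on the gene's strand and ends at the base before the start of the Ensembl canonical transcript (Gencode M39), except that the Casp4 window leaves out its last 15 bases, which lie in an exon of another Casp4 transcript. The Nlrp3 window lies inside the bounds of the gene given above, downstream of its annotated 5' end, and touches no annotated exon. Capitals mark the match to the NF-kappaB consensus, which only the Casp4 window holds.

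Mefv, chr16:3535962-3536211, minus strand: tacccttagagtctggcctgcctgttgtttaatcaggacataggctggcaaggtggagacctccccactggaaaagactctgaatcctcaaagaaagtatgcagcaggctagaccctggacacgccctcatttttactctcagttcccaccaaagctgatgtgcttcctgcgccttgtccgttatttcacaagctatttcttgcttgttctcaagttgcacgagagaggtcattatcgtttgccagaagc
Nlrp3, chr11:59433262-59433511, plus strand: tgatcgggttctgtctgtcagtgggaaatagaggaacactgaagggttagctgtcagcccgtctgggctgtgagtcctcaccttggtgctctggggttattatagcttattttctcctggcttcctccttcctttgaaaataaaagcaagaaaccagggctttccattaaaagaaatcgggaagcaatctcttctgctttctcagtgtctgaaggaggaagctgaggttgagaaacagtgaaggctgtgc
Casp4, chr9:5308593-5308827, plus strand: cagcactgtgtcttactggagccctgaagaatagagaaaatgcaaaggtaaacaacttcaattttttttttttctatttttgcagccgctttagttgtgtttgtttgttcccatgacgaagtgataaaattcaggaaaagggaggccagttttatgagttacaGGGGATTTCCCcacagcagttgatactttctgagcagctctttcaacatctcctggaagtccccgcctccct

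The capitals in the Casp4 window hold 2 overlapping matches, from 87 to 78 and from 86 to 77 bases before the start. Of the 10 members only Casp4 had this motif in its 250 bases, while 4.52% of the 13220 promoters of tested protein-coding genes had it, searched on both strands. The interferon-stimulated response element was in 0 of 10 members (3.31% of all promoters), and the AP-1 motif TGANTCA was in 0 of 10 (4.78%). The PU.1 motif GAGGAAGT (2.28% of all promoters) and the C/EBP motif TTGCNNAA (8.21%) each had a match in Pycard only. All 250 bases of the windows of Aim2, Pycard and Casp1 lie in annotated exons, of Aim2 itself, Gm45205 and Gm67740. The Pycard matches therefore also lie in an exon. A match describes letters in the window and shows no binding.

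The genotype comparison asked whether these genes differed between Ezr-KOm and WT cells of the same population, and none of the 10 passed the test in any population. By edgeR's quasi-likelihood test with Benjamini-Hochberg adjustment over all genes tested, 0 of 10 members were called in moMs, where 0.171% of all tested genes were called, 0 of 10 in tnsIMs (0.164% of all genes) and 0 of 10 in matIMs (0.152% of all genes). At an unadjusted p under 0.05 the counts of members were also 0, 0 and 0, against 3.74%, 3.24% and 3.84% of all genes, and DESeq2 also called 0 members in each population. With the replicate number as a block, 0 members were called and 1 member in matIMs, Nlrc4, had an unadjusted p under 0.05 (log2 fold change 0.41, unadjusted p = 0.0218). The cut-off applied by the study, which joins an unadjusted p under 0.05 to a log2 fold change beyond 0.75 in size, likewise took 0 members (2.51%, 1.83% and 2.4% of all genes). With so few calls among all genes, a count of 0 among 10 genes is near the background.

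Values of single libraries are given in the order of replicates 1, 2 and 3. Nlrp3 was at 655, 537 and 474 CPM in WT moMs and at 744, 716 and 514 CPM in Ezr-KOm moMs. Those groups overlap, and the log2 fold change was 0.24 with a 95% interval from -0.21 to 0.70. In matIMs Nlrp3 was at 371, 256 and 311 CPM in WT and at 428, 336 and 365 CPM in Ezr-KOm (log2 fold change 0.27, 95% interval -0.19 to 0.72). The smallest unadjusted p among the 30 genotype tests of members was that of Nlrc4 in matIMs, the platform partner of the NAIP proteins that bind bacterial flagellin and secretion-system proteins. Nlrc4 was at 8.47, 6.71 and 7.86 CPM in WT matIMs and at 9.11, 9.60 and 11.9 CPM in Ezr-KOm matIMs. Every Ezr-KOm library lay above every WT library (log2 fold change 0.41 ± 0.21 SE, edgeR unadjusted p = 0.0642, adjusted p = 1.00). Of all tested genes, 10.1% did not overlap between the genotypes in matIMs in either direction and 5.03% were higher without overlap, so 1 of 10 members is close to the background. In moMs the member without overlap was Pycard, at 63.1, 65.8 and 62.9 CPM in WT and at 73.3, 72.9 and 67.6 CPM in Ezr-KOm (log2 fold change 0.16, adjusted p = 1.00; 4.45% of all genes were higher without overlap there and 8.52% apart in either direction).

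The intervals say what size of difference these libraries could still hold in the fit without a replicate block. With the block Nlrc4 in matIMs had an unadjusted p under 0.05, as given above, and intervals from that fit are not given here. The intervals without a block were narrowest for Gsdmd, with log2 fold changes of 0.01, 0.03 and 0.02 in moMs, tnsIMs and matIMs and 95% intervals of -0.27 to 0.29, -0.26 to 0.31 and -0.27 to 0.30. They were widest for Aim2, a sensor of double-stranded DNA in the cytosol, whose log2 fold change in tnsIMs was 0.46 with an interval from -0.18 to 1.09. Aim2 in tnsIMs spread over 11.6, 6.91 and 21.0 CPM in WT and over 20.6, 12.4 and 21.7 CPM in Ezr-KOm. Across the list moMs had a median log2 fold change of 0.03, tnsIMs one of 0.11 and matIMs one of 0.05, and the median of all genes lay within 0.01 of 0 in each. No member's genotype difference was shown to vary between populations: of 30 tests of that difference, 0 passed at an adjusted p under 0.05 (0% of all genes). DESeq2 also called 0. By edgeR 0 passed at an unadjusted p under 0.05. Of all tested genes, 1.47% did so for tnsIMs against moMs, 1.7% for matIMs against moMs and 1.16% for matIMs against tnsIMs. A count of 0 is therefore near the background. The smallest unadjusted p was 0.0937.

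**Figure D2:**
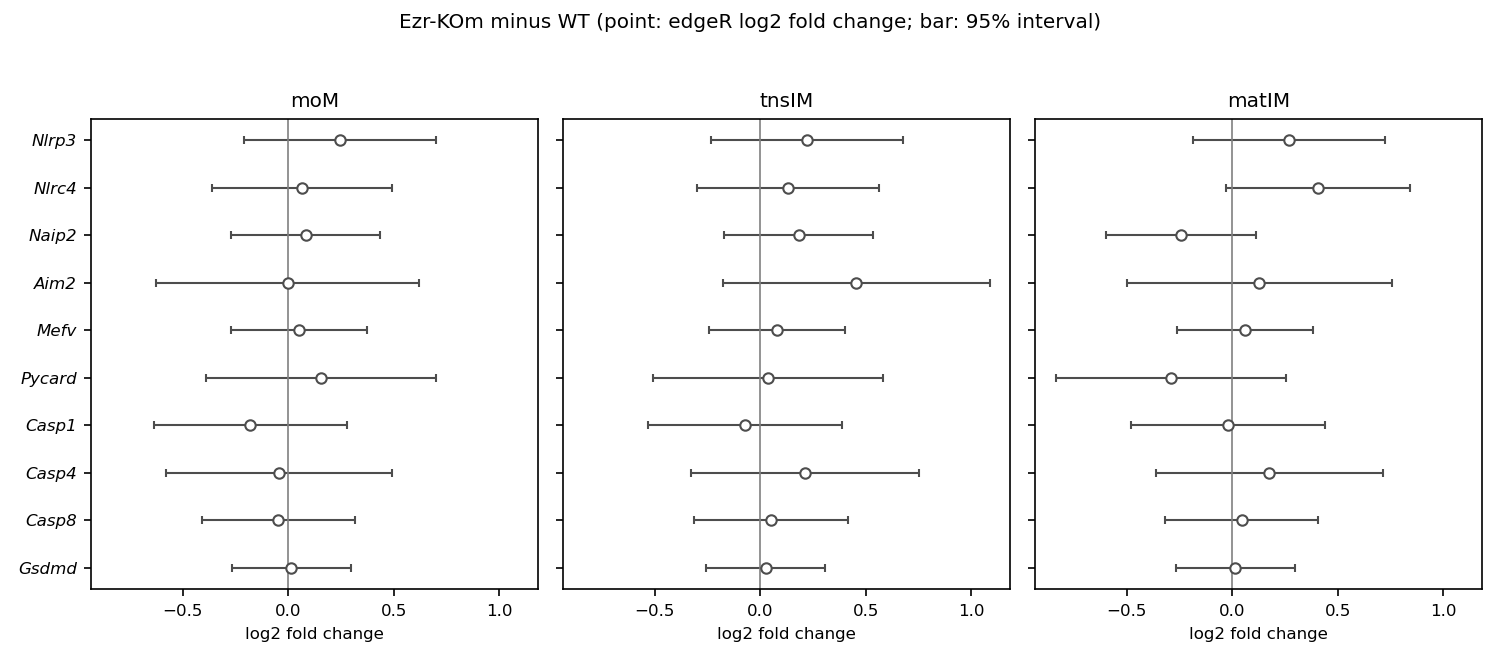
Ezr-KOm minus WT log2 fold change of each gene (horizontal axes) in moMs, tnsIMs and matIMs (panels), fitted with edgeR on all 18 libraries; points are estimates and bars 95% intervals. In this fit, which has no replicate block, every interval contains 0, and Aim2 in tnsIMs reaches 1.09.

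The population comparison asked how the genes differ between moMs, tnsIMs and matIMs, which the study places in this order as monocytes settle in the lung. Sensors were lower in matIMs than in moMs. In WT cells, 4 of 5 sensors passed the test and were lower (Mefv, Nlrc4, Nlrp3 and Naip2) and Aim2 did not pass; in Ezr-KOm cells the calls fell on the same 4 sensors. Over all 10 members, 6 were called lower and 0 higher in WT, where 11.4% of all genes were called lower and 24.8% in either direction, and 5 were called lower and 0 higher in Ezr-KOm (10.7% lower and 23.3% in either direction). The median log2 fold change of the 10 members was -0.63 in both genotypes, against 0.01 for all genes. The libraries of 7 members lay lower without overlap in WT (19.3% of all genes) and those of 8 in Ezr-KOm (19.2%).

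Mefv had the largest difference. Its product, pyrin, responds to the action of bacterial toxins on the cell. In WT it was at 263, 274 and 213 CPM in moMs, at 119, 138 and 137 CPM in tnsIMs and at 82.1, 88.3 and 102 CPM in matIMs. Those 3 populations did not overlap. In Ezr-KOm it was at 299.6, 236 and 242 CPM in moMs, 126, 119.9 and 170.5 CPM in tnsIMs and 97.6, 87.2 and 99.2 CPM in matIMs, again without overlap. The matIM mean was 36.3% of the moM mean in WT and 36.5% in Ezr-KOm, and the tnsIM mean was 52.6% and 53.6%. The log2 fold change from moMs to matIMs was -1.46 ± 0.16 SE in WT (adjusted p = 1.28e-06) and -1.45 ± 0.16 in Ezr-KOm (adjusted p = 1.40e-06). From moMs to tnsIMs it was -0.93 in WT (adjusted p = 0.000308) and -0.90 in Ezr-KOm (adjusted p = 0.000606), and all 4 calls held under each alternative and with each library left out. From tnsIMs to matIMs Mefv was lower by a log2 fold change of -0.53 in WT (adjusted p = 0.0197) and -0.55 in Ezr-KOm (adjusted p = 0.0158). These smaller differences rested on single libraries: the WT call was lost without WT tnsIM replicate 3 (adjusted p = 0.0566) or WT matIM replicate 1 (0.0846) or 2 (0.0706), and the Ezr-KOm call without Ezr-KOm tnsIM replicate 3 (0.0977) or matIM replicate 2 (0.0725).

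Nlrp3 was lower in matIMs than in moMs and tnsIMs, and tnsIMs did not pass the test against moMs. In WT tnsIMs it was at 684, 331 and 552 CPM, a range that spans all WT moM libraries, and in Ezr-KOm tnsIMs at 625, 606 and 597 CPM. The 95% interval of the tnsIM minus moM difference ran from -0.54 to 0.37 in WT and from -0.57 to 0.34 in Ezr-KOm. From moMs to matIMs the log2 fold change was -0.83 ± 0.22 SE in WT (adjusted p = 0.00829) and -0.81 ± 0.22 in Ezr-KOm (adjusted p = 0.0105), with every matIM library below every moM library in both genotypes. Those calls were lost without WT matIM replicate 2 (adjusted p = 0.0524) and without Ezr-KOm matIM replicate 2 (0.0502). From tnsIMs to matIMs it was -0.74 in WT (adjusted p = 0.0213) and -0.69 in Ezr-KOm (adjusted p = 0.0310). The WT call was lost without WT tnsIM replicate 1 (adjusted p = 0.152) or 3 (0.0580) or WT matIM replicate 2 (0.114) or 3 (0.0603). The Ezr-KOm call was lost without any of the 3 Ezr-KOm tnsIM libraries (0.0740, 0.0677 and 0.0533 for replicates 1, 2 and 3) or without Ezr-KOm matIM replicate 2 (0.119) or 3 (0.0926).

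Nlrc4 and Naip2 form a pair, since NAIP2 binds the rod protein of bacterial secretion systems and then recruits NLRC4. Nlrc4 was at 17.9, 15.4 and 18.1 CPM in WT moMs, 13.1, 7.61 and 14.1 CPM in WT tnsIMs and 8.47, 6.71 and 7.86 CPM in WT matIMs. Its log2 fold change from moMs to matIMs was -1.16 ± 0.21 SE in WT (adjusted p = 0.000397) and -0.81 ± 0.21 in Ezr-KOm (adjusted p = 0.00655), without overlap in either genotype. Both calls held under each alternative and with each library left out. From moMs to tnsIMs Nlrc4 did not pass (log2 fold change -0.55 with adjusted p = 0.0619 in WT and -0.49 with adjusted p = 0.126 in Ezr-KOm). In WT that difference passed with DESeq2 (adjusted p = 0.0458) and without WT tnsIM replicate 3 (adjusted p = 0.0304). With the replicate number as a block in edgeR it passed in both genotypes (adjusted p = 0.0121 in WT and 0.0360 in Ezr-KOm). Naip2 was at 64.1, 75.9 and 74.8 CPM in WT moMs, 68.0, 47.4 and 69.1 CPM in WT tnsIMs and 51.2, 39.7 and 47.2 CPM in WT matIMs. In Ezr-KOm it was at 74.3, 76.7 and 76.6 CPM in moMs, 71.8, 59.5 and 78.3 CPM in tnsIMs and 47.9, 35.8 and 33.2 CPM in matIMs. The matIM libraries lay below the moM libraries in both genotypes, with a log2 fold change of -0.64 ± 0.17 SE in WT (adjusted p = 0.00891; 0.0556 without WT matIM replicate 2) and -0.96 ± 0.17 in Ezr-KOm (adjusted p = 0.000343). From tnsIMs to matIMs Naip2 passed in Ezr-KOm (log2 fold change -0.84 ± 0.17 SE, adjusted p = 0.00145) and not in WT (-0.42 ± 0.17, adjusted p = 0.101; 0.0177 without WT tnsIM replicate 2), and the difference between the genotypes did not pass the test in any of the pairs of populations. Naip2 has near-identical copies in the same cluster, and its level is uncertain to that extent. Of the annotated exon bases of Nlrc4, 17.9% overlap Slc30a6 on the opposite strand, and Pycard shares 485 exon bases with Gm45205, also on the opposite strand. The libraries do not mark strand, and the strand setting of the counts is not given in the sources used here. The levels of Nlrc4 and Pycard are therefore uncertain to the extent of those overlaps.

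**Figure D3:**
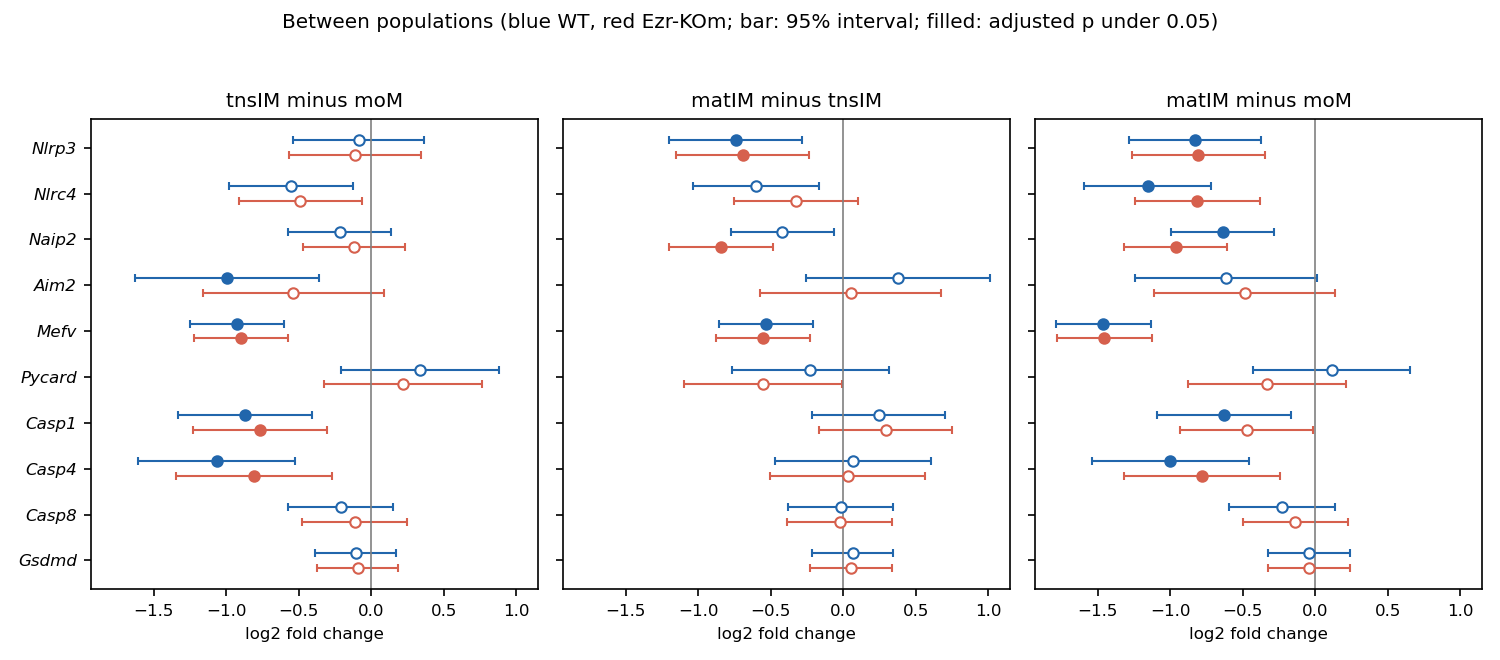
Log2 fold change of each gene (horizontal axes) for tnsIMs minus moMs, matIMs minus tnsIMs and matIMs minus moMs (panels), in WT (blue) and Ezr-KOm (red), fitted with edgeR on all 18 libraries; bars are 95% intervals and filled points have an adjusted p under 0.05. All filled points lie below 0, Mefv reaches -1.46 for matIMs minus moMs, and Casp1 and Casp4 are filled for tnsIMs minus moMs but not for matIMs minus tnsIMs.

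The proteases Casp1 and Casp4 were already lower in tnsIMs than in moMs, and neither gene passed between tnsIMs and matIMs. Over all 10 members, 4 were called lower in WT tnsIMs than in WT moMs (Casp4, Aim2, Mefv and Casp1) and 0 higher, where 8.61% of all genes were called lower and 21.6% in either direction. In Ezr-KOm 3 were called lower (Mefv, Casp4 and Casp1) and 0 higher (5.04% of all genes lower, 14.3% in either direction). The median log2 fold change of the members was -0.39 in WT and -0.30 in Ezr-KOm, against 0.01 for all genes in both genotypes. The libraries of 5 members lay lower without overlap in WT (16.4% of all genes) and those of 4 in Ezr-KOm (12.6%). Casp4 was at 120.1, 80.6 and 89.3 CPM in WT moMs, 49.8, 34.1 and 54.3 CPM in WT tnsIMs and 56.3, 40.3 and 48.5 CPM in WT matIMs. The tnsIM mean was 47.7% and the matIM mean 50.0% of the WT moM mean, and every library of both populations lay below every moM library. The log2 fold change against moMs was -1.07 ± 0.26 SE in tnsIMs (adjusted p = 0.00611) and -0.999 ± 0.26 in matIMs (adjusted p = 0.00730), and both calls held under each alternative and with each library left out.

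In Ezr-KOm, Casp4 was at 121, 69.1 and 91.1 CPM in moMs, 65.4, 35.0 and 60.1 CPM in tnsIMs and 63.9, 40.8 and 59.0 CPM in matIMs. The log2 fold change against moMs was -0.81 in tnsIMs (adjusted p = 0.0407) and -0.78 in matIMs (adjusted p = 0.0336), and these calls rested on single libraries and on the scaling. The tnsIM call was lost without Ezr-KOm moM replicate 1 (adjusted p = 0.184) or 3 (0.105) or tnsIM replicate 2 (0.196), and with upper-quartile normalization (0.0779), library totals alone (0.0700), only genes with at least 10 counts in every library (0.0663) or Ezr-KOm libraries alone (0.0652). The matIM call was lost without moM replicate 1 (0.177) or 3 (0.0636) or matIM replicate 2 (0.151) or 3 (0.0595), and with upper-quartile normalization (0.0569), library totals alone (0.0763) or Ezr-KOm libraries alone (0.0533).

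Casp1, which encodes the protease that matures IL-1β and IL-18, was at 110.0, 107 and 143 CPM in WT moMs, 52.3, 63.2 and 80.9 CPM in WT tnsIMs and 74.1, 72.5 and 85.9 CPM in WT matIMs. The WT tnsIM libraries all lay below the WT moM libraries (log2 fold change -0.87 ± 0.22 SE, adjusted p = 0.00802), a call kept under each alternative and with each library left out. In Ezr-KOm it was at 109, 89.4 and 119 CPM in moMs and at 76.0, 37.7 and 73.5 CPM in tnsIMs (log2 fold change -0.76, adjusted p = 0.0241). Without the low Ezr-KOm tnsIM replicate 2 that difference was -0.50 (adjusted p = 0.108), and the call was also lost without Ezr-KOm moM replicate 1 (0.0593) or 3 (0.117) and with library totals alone (0.0515). From moMs to matIMs Casp1 passed in WT (log2 fold change -0.63, adjusted p = 0.0427) and not in Ezr-KOm (-0.47, adjusted p = 0.138; 79.6, 68.1 and 81.4 CPM in Ezr-KOm matIMs). Without Ezr-KOm tnsIM replicate 2 the Ezr-KOm difference passed (adjusted p = 0.0459), and it passed with the replicate number as a block (adjusted p = 0.0434). The WT call was lost without any of the 3 WT moM libraries (adjusted p = 0.0573, 0.0530 and 0.182 for replicates 1, 2 and 3), any of the 3 WT matIM libraries (0.114, 0.129 and 0.0531), or Ezr-KOm matIM replicate 1 (0.0507) or 3 (0.0501), and with upper-quartile normalization (0.0541) or library totals alone (0.0942).

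Aim2 was at 27.5, 23.4 and 28.5 CPM in WT moMs, 11.6, 6.91 and 21.0 CPM in WT tnsIMs and 12.6, 18.4 and 20.6 CPM in WT matIMs. It passed only for WT tnsIMs against WT moMs (log2 fold change -0.995 ± 0.30 SE, adjusted p = 0.0243). That call was lost without WT moM replicate 1 (adjusted p = 0.0591) or 3 (0.0735), without WT tnsIM replicate 1 (0.0838) or 2 (0.104), and with library totals alone (0.0511). In Ezr-KOm the same difference was -0.54 with a 95% interval from -1.16 to 0.09.

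From tnsIMs to matIMs, 2 members were called lower in WT (Nlrp3 and Mefv) and 0 higher, where 10.2% of all genes were called lower and 18.5% in either direction. In Ezr-KOm 3 were called lower (Naip2, Mefv and Nlrp3) and 0 higher (9.85% lower and 18.2% in either direction). The median log2 fold change of the members was -0.12 in WT and -0.17 in Ezr-KOm, against 0.04 and 0.02 for all genes. The libraries of 1 member, Mefv, lay lower without overlap in WT (15.4% of all genes) and those of 3 in Ezr-KOm (15.7%).

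Pycard, Casp8 and Gsdmd passed in none of the 6 population comparisons. Pycard, the adaptor that joins several sensors to caspase-1, spread widely within groups: 82.8, 106 and 53.9 CPM in WT tnsIMs and 75.7, 121 and 51.8 CPM in Ezr-KOm tnsIMs, where replicate 2 was the highest and replicate 3 the lowest library in both genotypes. Its 95% interval for matIMs minus moMs was -0.43 to 0.66 in WT and -0.88 to 0.21 in Ezr-KOm. Casp8, whose product starts apoptosis and can also cleave gasdermin D, was at 163, 206 and 182 CPM in WT moMs and 143, 159.9 and 168 CPM in WT matIMs (95% interval of the log2 fold change -0.59 to 0.13). Gsdmd was the steadiest member. Its libraries ran from 171 to 203 CPM in WT moMs, 162 to 186 CPM in WT tnsIMs and 169 to 201 CPM in WT matIMs, and from 161 to 221 CPM in Ezr-KOm matIMs. The log2 fold change for matIMs minus moMs was -0.04 in both genotypes, with a 95% interval of -0.32 to 0.24 in each, and it turned to 0.056 in WT and 0.0874 in Ezr-KOm with library totals alone.

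Markers of other cell types moved with the same population comparisons, and their part in these results was not tested. Of all genes 13.4% were called higher and 11.4% lower in matIMs than in moMs in WT, and 12.5% and 10.7% in Ezr-KOm. From moMs to matIMs, 8 of 10 dendritic-cell markers were higher in WT and 8 of 10 in Ezr-KOm, among them Ccr7, Fscn1, Ccl22, Zbtb46 and Flt3. The summed level of that list was 83.6 to 125 CPM in WT moMs, 309 to 557 CPM in WT tnsIMs and 5512 to 7608 CPM in WT matIMs. Of the 11 macrophage and monocyte markers, 5 were lower and 3 higher (the complement genes C1qa, C1qb and C1qc) in WT matIMs against moMs, with sums of 35129 to 41752 CPM in moMs, 20998 to 31950 CPM in tnsIMs and 12737 to 15261 CPM in matIMs. The 6 B-cell markers summed to 9.28 to 13.7 CPM in WT moMs and 453 to 604 CPM in WT matIMs, and the 6 epithelial markers were highest in WT tnsIMs, at 2456 to 4065 CPM against 114 to 151 CPM in moMs. The 13 neutrophil markers summed to 794 to 887 CPM in WT moMs and 282 to 386 CPM in WT matIMs, but 5 of 13 were higher and 3 lower in WT matIMs, Elane was at 0 in every matIM library and Ly6g stayed at or below 0.918 CPM in every library. The 7 alveolar macrophage markers fell in sum, from between 5241 and 6539 CPM in WT moMs to between 417 and 573 CPM in WT matIMs, with 1 marker, Chil3, lower and 6 higher. In WT the 8 T and NK cell markers summed to 35.5 to 52.6 CPM in moMs and 37.0 to 46.7 CPM in matIMs, the 5 endothelial markers to 77.4 to 105 CPM in moMs, 233 to 378 CPM in tnsIMs and 66.6 to 89.1 CPM in matIMs, and the 5 fibroblast markers to 21.5 to 35.5, 79.3 to 99.5 and 12.4 to 25.7 CPM. No gene of the 9 marker lists was called between the genotypes. Of all genes 0.171% were called in moMs, 0.164% in tnsIMs and 0.152% in matIMs, so a count of 0 is near the background.

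The wider pathway was read from a list of 41 further genes, of which 38 were tested. Nlrp6 and Gsdmc were not in the table and Ninj2 had too few reads. Between genotypes 0 of 38 were called in any population (0.171%, 0.164% and 0.152% of all genes in moMs, tnsIMs and matIMs). From moMs to matIMs, 13 of 38 were lower and 0 higher in WT (11.4% and 13.4% of all genes) and 14 lower and 1 higher in Ezr-KOm (10.7% and 12.5%). Between genotypes the smallest p was that of Nlrp1b in moMs, at 9.12 to 10.7 CPM in WT and 5.42 to 6.86 CPM in Ezr-KOm (log2 fold change -0.73 ± 0.22 SE, adjusted p = 0.584). It was named after its value was seen. Il1b was the most abundant cytokine transcript and was not called between genotypes: in moMs it was at 7872, 9523 and 7169 CPM in WT and 10529, 9646 and 9875 CPM in Ezr-KOm, without overlap (log2 fold change 0.29 with a 95% interval from -0.06 to 0.64). Of all genes 4.45% were higher without overlap in that comparison and 8.52% were apart in either direction. Il18 was lower in matIMs than in moMs in both genotypes, at 30.3, 31.7 and 24.4 CPM in WT moMs and 11.9, 15.0 and 9.87 CPM in WT matIMs (log2 fold change -1.23 ± 0.26 SE, adjusted p = 0.00157; -1.29 in Ezr-KOm, adjusted p = 0.00106). Il1b was lower in Ezr-KOm matIMs than in Ezr-KOm moMs (log2 fold change -0.60, adjusted p = 0.0114) and did not pass in WT (-0.32, adjusted p = 0.178). Il1a passed for matIMs against tnsIMs only, with a log2 fold change of -0.93 in WT (adjusted p = 0.0334) and -1.04 in Ezr-KOm (adjusted p = 0.0179).

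Of the 8 other sensors tested, 5 were lower and 0 higher in WT matIMs than in WT moMs (11.4% and 13.4% of all genes). In Ezr-KOm 5 were lower and 1 higher, Nlrp10 (10.7% and 12.5% of all genes). In tnsIMs 6 of 8 were lower than in moMs in WT (8.61% of all genes) and 2 of 8 in Ezr-KOm (5.04% of all genes). Naip5, the flagellin-binding relative of Naip2, was at 52.9, 63.7 and 58.1 CPM in WT moMs and 23.2, 20.4 and 31.2 CPM in WT matIMs (log2 fold change -1.22 ± 0.24 SE, adjusted p = 0.000800). Naip1 was at 2.87 to 4.21 CPM in WT moMs and 0.513 to 0.708 CPM in WT matIMs (log2 fold change -2.59). Nlrp1a was at 26.2 to 34.5 and 10.6 to 19.2 CPM in the same groups (log2 fold change -1.19), and Nlrp1b passed for tnsIMs against moMs in WT (log2 fold change -0.96, adjusted p = 0.00411).

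Of the 14 priming and activation genes, 3 were lower and 0 higher in WT matIMs than in WT moMs (11.4% and 13.4% of all genes). In Ezr-KOm 2 were lower and 0 higher (10.7% and 12.5% of all genes). With 14 genes these counts are near the background. P2rx7, the ATP-gated channel that triggers NLRP3, was at 43.2 to 58.7 CPM in WT moMs and 19.7 to 28.2 CPM in WT matIMs (log2 fold change -1.08 ± 0.19 SE, adjusted p = 0.000339), with a log2 fold change of -1.13 in Ezr-KOm (adjusted p = 0.000219). Panx1, a membrane channel, and Pstpip1, a binding partner of pyrin, were lower in WT matIMs by log2 fold changes of -0.62 and -0.56. Nek7, the kinase that binds NLRP3, took another course: it was lower in tnsIMs than in moMs (log2 fold change -0.74 in WT and -0.50 in Ezr-KOm) and higher in matIMs than in tnsIMs (0.57 and 0.51), while it did not pass between matIMs and moMs (95% intervals -0.50 to 0.16 in WT and -0.32 to 0.34 in Ezr-KOm). None of the 6 guanylate-binding and immunity-related GTPases listed, which help expose bacterial LPS to the Casp4 product, was called in any comparison. Of all genes, 0.152% to 0.171% were called between genotypes and 14.3% to 24.8% between populations, in either direction. With 6 genes a count of 0 in a single comparison is not far from that background.

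Of the 9 cell-death partners, 3 were lower (Casp12, Mlkl and Ripk1) and 0 higher in WT matIMs than in WT moMs. In Ezr-KOm 4 were lower, with Ripk3 added, and 0 higher. Of all genes 11.4% were lower and 13.4% higher in WT, and 10.7% and 12.5% in Ezr-KOm. Ripk1, a kinase upstream of caspase-8 and necroptosis, was at 152, 151 and 154 CPM in WT moMs, 94.1, 85.3 and 109 CPM in WT tnsIMs and 89.3, 94.1 and 114 CPM in WT matIMs (log2 fold change -0.62 ± 0.13 SE, adjusted p = 0.00173). Mlkl, the executor of necroptosis, had a log2 fold change of -1.05 (adjusted p = 0.00617) for WT matIMs against moMs, and Casp12 one of -2.27 from a moM level of 1.41 to 3.03 CPM. Of 4 pore and rupture genes tested, Ninj1, which drives the final rupture of the membrane, was lower in matIMs than in moMs at 506, 506 and 382 CPM in WT moMs and 280.0, 258 and 191 CPM in WT matIMs (log2 fold change -0.94 ± 0.18 SE, adjusted p = 0.000624; -1.11 in Ezr-KOm, adjusted p = 0.000135). It was also lower in matIMs than in tnsIMs in both genotypes (10.2% of all genes were lower in WT and 9.85% in Ezr-KOm). The other 3 were not called in any comparison. From moMs to matIMs 11.4% of all genes were lower in WT and 10.7% in Ezr-KOm, so 1 of 4 is near the background.

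**Figure D4:**
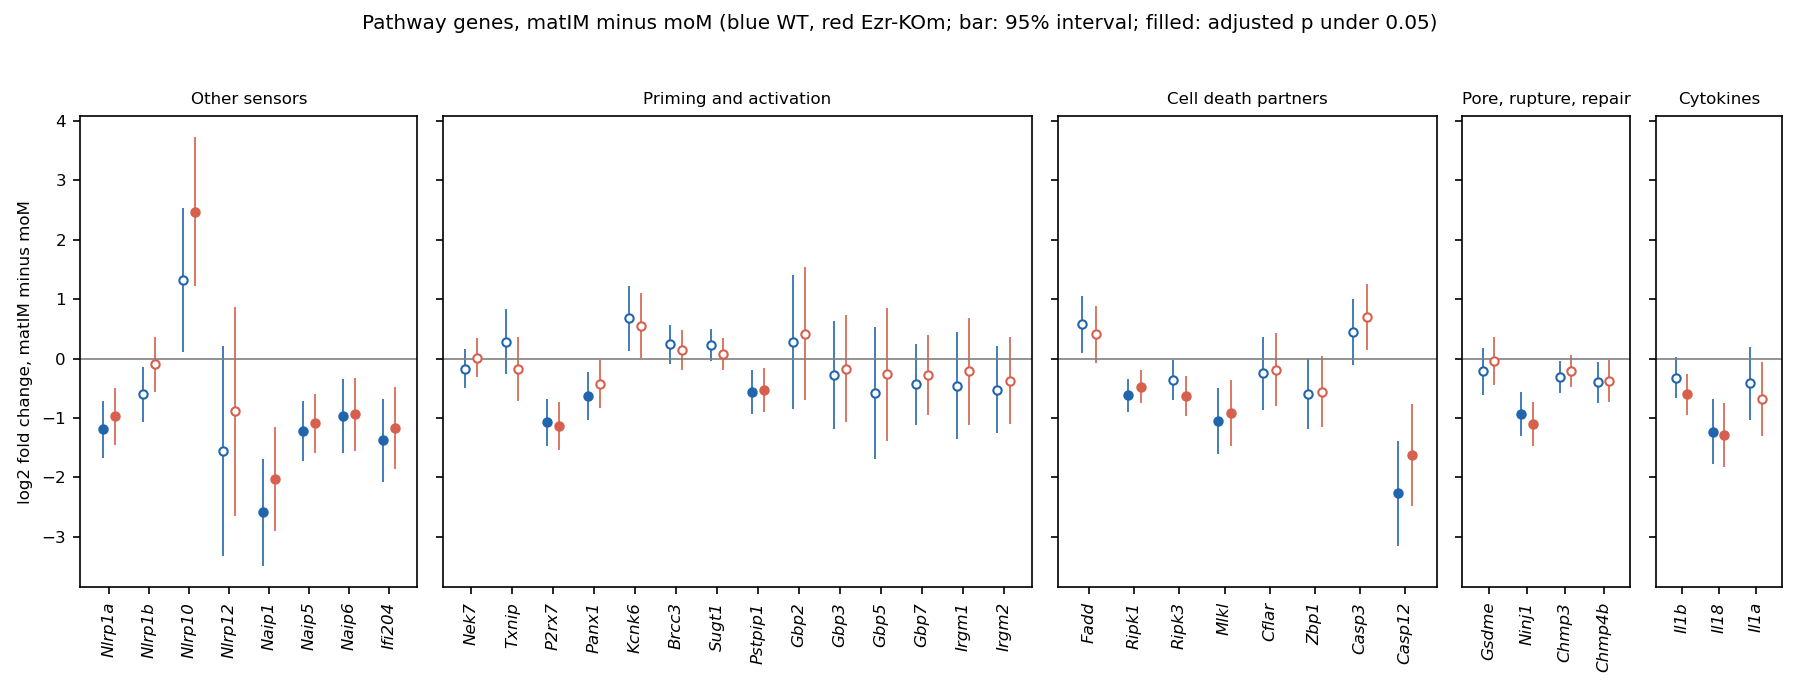
Log2 fold change for matIMs minus moMs (vertical axis) of tested pathway genes, grouped by role, in WT (blue) and Ezr-KOm (red), fitted with edgeR on all 18 libraries; bars are 95% intervals and filled points have an adjusted p under 0.05. Most filled points lie below 0, with Naip1 at -2.59 and Casp12 at -2.27 in WT, and the filled point above 0 is Nlrp10 in Ezr-KOm.

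The tested genes whose log2 CPM over the 18 libraries ran most like that of Nlrp3 were Slc7a8 (Pearson r = 0.93), N4bp1, Ets2, Gm14023 and Lair1 (each r = 0.90). Those most like Casp1 were Bnip3l (r = 0.95), Scp2 and Osbpl9 (each r = 0.93), Nemf (r = 0.92) and Hadhb (r = 0.91). For Gsdmd, the member that differed least between groups, the closest were Rsl1, Zc3h3 and Ube2d1 (each r = 0.82), then Il10ra and Trafd1 (each r = 0.77). These are descriptions over libraries that share groups and depth.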

How the data were processed

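Libraries were made by the authors from sorted mouse lung cells with SMART-Seq v4 and Nextera XT, which do not mark strand, and reads were checked with FastQC and aligned with STAR 2.7.9a to GRCm39 with Gencode M29 annotation. The deposited values are raw counts per gene in 18 libraries, with totals of 16512783 to 48460995 counts. The strand column of the STAR counts is not given in the sources used here. From the counts, genes were filtered with edgeR's filterByExpr (minimum count 10), which kept 15811 of 21254 genes, scaled by TMM, and tested with edgeR's quasi-likelihood test on all 18 libraries and 6 groups with Benjamini-Hochberg adjustment over all genes tested (threshold 0.05). The self-test on simulated counts was run on the same code, with 200 genes changed by a log2 fold of 2 in Ezr-KOm moMs. It recovered 76% of them with edgeR and 79.5% with DESeq2. Of the calls, 3.18% were false with edgeR and 14.5% with DESeq2. Smaller changes were not simulated. Levels are CPM on the TMM scale. Levels per kilobase divide them by the joined length of the exons of all annotated transcripts of a gene (Gencode M39). Sequences were read from GRCm39.

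The labels give 3 biological replicates a group and do not tie libraries to animals. Replicate numbers were shared between groups. Same-numbered WT and Ezr-KOm libraries of 1 population deviated together (correlations 0.102 to 0.316, against at most 0.0508 for other numbers), so the numbers pair the genotypes, and a replicate block changed no genotype call of a member. The members and gene lists were chosen with earlier results of these data known. All 10 members were named, with Ezr, the 3 cytokines and, per role group of the pathway list, up to 4 genes with the smallest p among those with an adjusted p under 0.05. Genes named outside this rule, among them Nlrp10, were chosen after their values were seen, and 1 gene of the pathway list is not reported here by name. Alternatives were DESeq2, no filter, library totals only, upper-quartile normalization, at least 10 counts in every library, robust estimation, 1 population or genotype fitted alone, replicate blocks, and each library left out. R 4.3.3, edgeR 4.0.16, limma 3.58.1, DESeq2 1.42.0, Python 3.11.15, numpy 2.4.6, pandas 2.3.3 and matplotlib 3.10.9 were used.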

Additional observations from a re-analysis of the deposited data

How the results depend on the processing

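Over the 10 members and the 3 genotype and 6 population comparisons, 747 of 780 values under another setting kept their direction and their side of the threshold, 11 lost a call, 12 gained one and 10 changed sign. With 1 library left out, 1517 of 1620 did so, 39 lost a call, 8 gained one and 56 changed sign. All sign changes were in differences that did not pass. Of the 23 calls, 11 were kept in every setting and 12 were lost in some. With library totals only, 1 member was called for Ezr-KOm tnsIMs against moMs in place of 3. With 1 library left out the members called ranged from 3 to 6 for matIMs against moMs in WT and 3 to 6 in Ezr-KOm, from 0 to 4 for matIMs against tnsIMs in WT and 1 to 3 in Ezr-KOm, and from 1 to 3 for tnsIMs against moMs in Ezr-KOm. The count fell to 1 for Ezr-KOm tnsIMs against moMs without moM replicate 1 or 3 or tnsIM replicate 2. For WT matIMs against tnsIMs it was 1 without tnsIM replicate 1 or 3 or matIM replicate 1 or 3, 0 by edgeR without matIM replicate 2 (3 at an unadjusted p under 0.05) and 4 without tnsIM replicate 2. Without tnsIM replicate 3 both lower calls, Nlrp3 and Mefv, were lost, and the 1 call was Aim2, higher in matIMs. The count was 3 for WT matIMs against moMs without matIM replicate 2, and without Ezr-KOm matIM replicate 2 it was 3 against moMs and 1 against tnsIMs.

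Calls gained in other settings included Nlrc4, which passed for WT matIMs against tnsIMs with DESeq2 (adjusted p = 0.0179) and for WT tnsIMs against moMs (0.0458), Aim2, higher in WT matIMs than tnsIMs without WT tnsIM replicate 3 (log2 fold change 0.88, 0.0374), and Pycard, lower in Ezr-KOm matIMs than tnsIMs without Ezr-KOm tnsIM replicate 3 (-0.80, 0.0314). Same-numbered libraries of 2 populations of 1 genotype had correlations of 0.0905 to 0.397, other numbers at most 0.0316, so the ranges did not overlap there. Between libraries that differed in population and genotype the ranges overlapped, at 0.0360 to 0.283 for the same number and -0.259 to 0.0704 for other numbers. With the replicate block the members called for tnsIMs against moMs, matIMs against moMs and matIMs against tnsIMs were 5, 6 and 3 in WT and 4, 6 and 3 in Ezr-KOm, and the block within genotype gave the same counts. The calls gained with the block were Nlrc4 for tnsIMs against moMs in WT (adjusted p = 0.0121) and Ezr-KOm (0.0360) and for matIMs against tnsIMs in WT (0.0146), and Casp1 for matIMs against moMs in Ezr-KOm (0.0434).

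Values that changed sign were, with DESeq2, -0.000423 for Gsdmd between genotypes in moMs. With upper-quartile normalization they were 0.00152 for Aim2 between genotypes in moMs, 0.00295 for Nlrp3 in WT tnsIMs against moMs, and 0.00278 in WT and 0.0174 in Ezr-KOm for Gsdmd in matIMs against moMs. With library totals only they were 0.056 in WT and 0.0874 in Ezr-KOm for Gsdmd in matIMs against moMs, and 0.0221 in WT and 0.0197 in Ezr-KOm for Casp8 in matIMs against tnsIMs, the latter 0.00593 in WT with the replicate block within genotype. The log2 fold changes of differences whose sign changed with 1 library left out had these ranges. For Ezr-KOm against WT in matIM they ran from -0.0502 to 0.28 for Aim2, from -0.0700 to 0.0589 for Casp1, from -0.0671 to 0.11 for Casp8, from -0.12 to 0.11 for Gsdmd, from -0.00723 to 0.15 for Mefv. For Ezr-KOm against WT in moM they ran from -0.18 to 0.15 for Aim2, from -0.27 to 0.14 for Casp4, from -0.13 to 0.0412 for Casp8, from -0.0631 to 0.0621 for Gsdmd, from -0.0637 to 0.13 for Mefv, from -0.00398 to 0.14 for Nlrc4. For Ezr-KOm against WT in tnsIM they ran from -0.24 to 0.19 for Casp1, from -0.11 to 0.24 for Casp8, from -0.0359 to 0.0867 for Gsdmd, from -0.0945 to 0.17 for Mefv, from -0.0931 to 0.30 for Nlrc4, from -0.0268 to 0.46 for Nlrp3, from -0.34 to 0.28 for Pycard. For matIM against moM in Ezr-KOm they ran from -0.17 to 0.0574 for Gsdmd. For matIM against moM in WT they ran from -0.12 to 0.0207 for Gsdmd, from -0.0129 to 0.29 for Pycard. For matIM against tnsIM in Ezr-KOm they ran from -0.17 to 0.20 for Aim2, from -0.20 to 0.20 for Casp4, from -0.17 to 0.10 for Casp8, from -0.0794 to 0.15 for Gsdmd. For matIM against tnsIM in WT they ran from -0.14 to 0.20 for Casp4, from -0.18 to 0.14 for Casp8, from -0.0279 to 0.13 for Gsdmd. For tnsIM against moM in Ezr-KOm they ran from -0.24 to 0.0316 for Casp8, from -0.16 to 0.47 for Pycard. For tnsIM against moM in WT they ran from -0.33 to 0.19 for Nlrp3.

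Over all genes, DESeq2 called 55, 55 and 52 genes between genotypes in moMs, tnsIMs and matIMs, against 27, 26 and 24. The replicate block called 42 in moMs and 38 in matIMs, and tnsIMs fitted alone gave 7. With at least 10 counts in every library the counts were 13 in place of 24 (genotypes in matIMs), 1760 in place of 2926 and 1837 in place of 2881 (matIMs against tnsIMs, WT and Ezr-KOm) and 1439 in place of 2257 (Ezr-KOm tnsIMs against moMs), where the block within genotype gave 3403. Library totals only moved the share of calls that were higher from 53.9% to 64.4% and from 53.9% to 66.1% for matIMs against moMs in WT and Ezr-KOm, and from 64.7% to 76.7% for Ezr-KOm tnsIMs against moMs, and put the median log2 fold change of all genes at up to 0.13, where upper-quartile normalization put it at up to 0.11. The cause of these changes was not tested. The lowest member count in any library was 109 reads, for Aim2.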

Other observations

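For some genes 1 replicate number was the lowest or the highest in every group, which was noticed after the values were seen. Casp4 was lowest in replicate 2 in all 6 groups, and so were Ifi204, Gbp2, Gbp3, Gbp5, Gbp7, Irgm1 and Zbp1 of the pathway list, while 0.949% of all tested genes were. Pycard, Brcc3 and Ninj1 were lowest in replicate 3 in all 6 groups, while 1.63% of all tested genes were. Nlrp3 was highest in replicate 1 in all 6 groups, at 371 CPM in WT matIMs and 744 CPM in Ezr-KOm moMs, and so were Cflar and Il1a, while 2.87% of all tested genes were.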
